A study of Mus musculus with 4 samples.

Results

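Cytokines of the common gamma-chain family reach T cells through receptors that share the chain encoded by *Il2rg*. The Janus kinases JAK1 and JAK3, bound to the receptor chains, then phosphorylate STAT proteins, above all STAT5. STAT5 in turn switches on *Cish* and genes of the SOCS family, whose proteins damp the same signal, so that receptor, kinase and brake form a feedback loop. Regulatory T (Treg) cells depend on the IL-2 branch of this family, while the IL-7 receptor chain is usually lower on them than on other CD4 T cells. Here 9 genes of this loop were followed by name in bulk RNA-seq of Treg cells, out of 47729 genes listed in the count table: the receptor chains *Il7r*, *Il15ra* and *Il9r*, the feedback genes *Cish*, *Socs1*, *Socs2* and *Socs3*, and the kinases *Jak1* and *Jak3*. They were selected by name, as genes of this loop. All 9 passed the filter on low counts that left 12536 genes.

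The 4 libraries, 2 per genotype, came from Treg cells sorted from adult C57BL/6 mice as CD25+ YFP+ cells, with spleen as the labelled tissue. The WT libraries are Tfrc +/+ Foxp3 YFP-Cre/+ and those labelled TfR1-deficient are Tfrc fl/fl Foxp3 YFP-Cre/+. *Tfrc* encodes TfR1, the receptor that brings transferrin-bound iron into cells. Both genotypes carry the YFP-Cre allele at the *Foxp3* locus, which drives Cre in Foxp3-expressing cells and thereby limits the deletion to them. The locus is X-linked and the mice were heterozygous, so only the Treg cells that use the Cre-bearing X chromosome are YFP+. The supplement to the paper calls the 2 libraries of a genotype biological replicates and names lymph nodes beside spleen as the source. How many mice stand behind a library is not given in the sources used here, so p-values measure only the spread between these libraries. The question of the comparison is which transcripts differ in Treg cells meant to lack TfR1.

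Library totals ran from 10841939 to 17278448 counts. *Tfrc* itself had 50.8 and 54.1 CPM (each gene's counts scaled to a common library size by TMM) in WT, and the libraries labelled TfR1-deficient had 56.1 and 48.3 CPM, a log2 fold change of -0.01 (SE 0.16). Its counts therefore do not check the genotype, and each direction given here rests on the labels. Whether the counts fall on the deleted part of *Tfrc* could not be read from a gene total. The *Foxp3* level was 194 and 130 CPM in WT and 122 and 114 CPM in the TfR1-deficient libraries. All 8 genes of the Treg marker list had counts in every library, with summed levels of 5238 to 5439 CPM in WT and 4104 to 4546 CPM in TfR1-deficient libraries. The list includes CD4 and CD3 chain genes, which other CD4 T cells also express, so the sum does not measure Treg identity. WT replicate 1 and TfR1-deficient replicate 2 stood apart from the other two. Their 20 macrophage markers summed to 1056 and 3387 CPM, whereas WT replicate 2 had 43.8 CPM and TfR1-deficient replicate 1 had 49.1 CPM, and 3 of the 20 were at 0 counts in WT replicate 2. The 8 proliferation genes summed to 1118 and 1035 CPM in the former pair and to 473 and 497 CPM in the latter. The macrophage gene *Csf1r* alone ranged from 1.97 to 371 CPM and the proliferation gene *Mki67* from 28.7 to 90.5 CPM. Differences within these pairs are therefore also given, and the part of the macrophage RNA in the results was not tested. The same pair was higher in macrophage and in proliferation RNA, so these cannot be told apart. In bulk RNA, fewer cells of a type and less RNA per cell cannot be told apart.

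The promoters are shown first because STAT factors act on several of these genes. STAT proteins recognise the palindrome TTCNNNGAA, which reads the same on both strands. RefSeq promoter windows (GRCm38.p6, 250 bases before to 50 bases after the start) were found for 8 of the 9 genes, in 9 windows. The motif was present in those of *Il7r*, *Cish* and *Socs3*, and these are shown for that reason, with the motif in capitals and each read 5′ to 3′ along the gene. The *Il7r* stretch lies at chr15:9529990-9530038 on the minus strand, with the motif starting 142 bases before the start. The *Cish* stretch lies at chr9:107296659-107296678 on the plus strand and holds 2 motifs, at the start base and 11 bases after it. The *Socs3* stretch lies at chr11:117969492-117969540 on the minus strand, with the motif starting 154 bases before the start. For *Il7r* and *Socs3* the start is that of the window's RefSeq transcript, which lies inside the whole gene span given below, so their stretches are before that start and the *Socs3* stretch is within the gene span.
Il7r: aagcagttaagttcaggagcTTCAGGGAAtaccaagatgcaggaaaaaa
Cish: TTCCTGGAAagTTCTTGGAA
Socs3: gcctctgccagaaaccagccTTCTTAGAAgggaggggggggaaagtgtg
Of all 32851 mouse windows of 300 bases, 2726 (8.3%) held at least 1 such motif and 150 (0.457%) at least 2. In the windows of *Il15ra*, *Il9r*, *Socs1*, *Jak1* and *Jak3* these letters were not found. A match is a stretch of letters and not a bound site. The genes themselves span, on GRCm38.p6, *Il7r* chr15:9506159-9529941, *Il15ra* chr2:11705172-11733985, *Il9r* chr11:32187544-32205283, *Cish* chr9:107296659-107302784, *Socs1* chr16:10783808-10785536, *Socs2* chr10:95383903-95417321, *Socs3* chr11:117966079-117970336, *Jak1* chr4:101151974-101265282 and *Jak3* chr8:71676383-71690577.

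No member was called different between the genotypes, which with 2 libraries a genotype does not show them to be equal. Tested by edgeR's quasi-likelihood method and adjusted by Benjamini-Hochberg over all 12536 genes, 0 of the 9 passed an adjusted p of 0.05, and the share of all genes that did was 0% higher and 0% lower, with 0.266 the lowest adjusted p of any gene. At an unadjusted p of 0.05 and a log2 fold change of 0.5 or more in size, 0 members rose and 0 fell, where 1.6% of all genes were higher and 2.48% lower. The unadjusted p was under 0.05 in 655 genes, against 626.8 that the threshold itself gives. Across the 9 genes the log2 fold change had a median of -0.16, with 7 negative and 2 positive values. Over all 12536 tested genes the median was 0.01, with 6135 negative and 6401 positive values. The median size of the change in the 9 members, 0.19, was near the 0.21 of all genes. With 2 libraries a genotype an exact permutation test of 1 gene cannot go below a two-sided p of 0.333, so none is given.

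**Figure D1:**
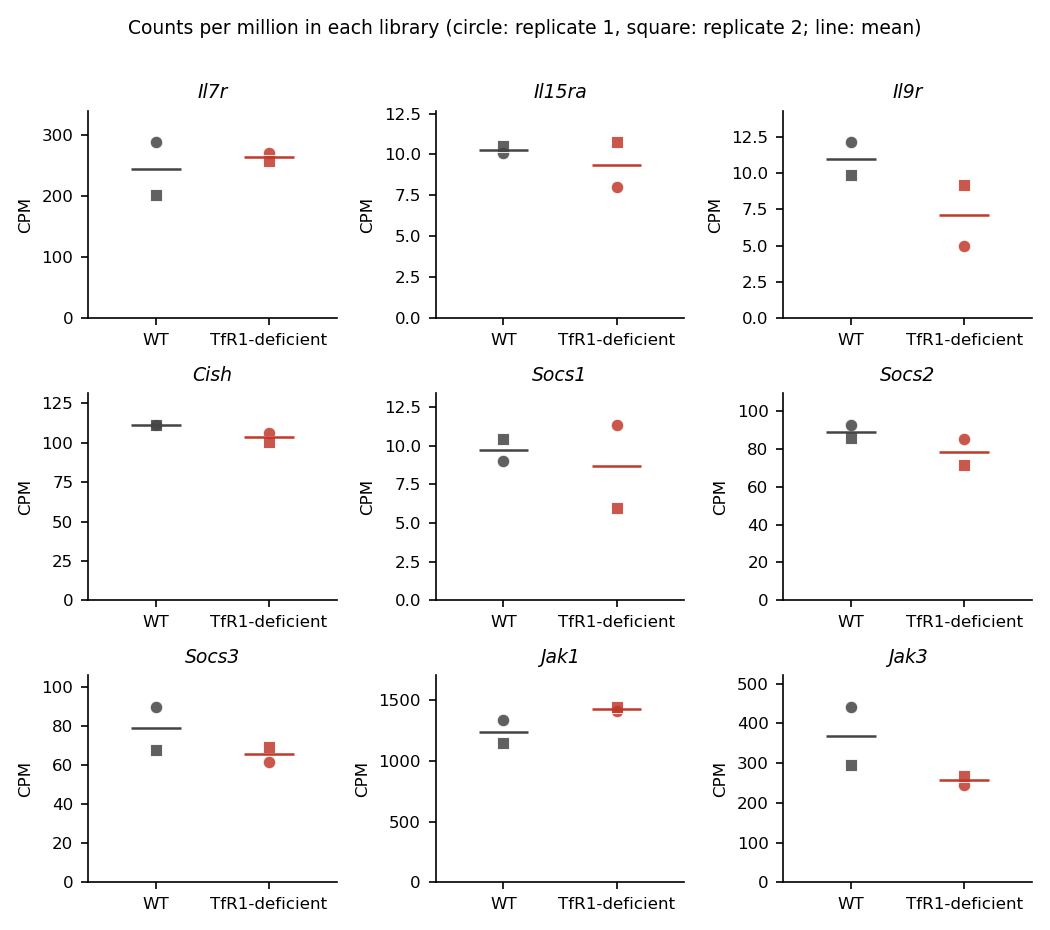
Level of each of the 9 genes in CPM (y axis, from 0) in the 2 WT and 2 TfR1-deficient libraries (circle, replicate 1, square, replicate 2, line, mean of 2). *Jak1* is the gene with both TfR1-deficient libraries above both WT libraries, and *Jak3*, *Il9r*, *Cish* and *Socs2* have both below, *Socs2* by a margin of under 1 CPM.

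In 1 of the 9 genes both TfR1-deficient libraries lay above both WT libraries, an arrangement seen in 16% of all tested genes. In 4 of the 9 both lay below, an arrangement seen in 18.9% of all tested genes. With scaling by library totals alone, the second count is 3, because *Socs2* then overlaps.

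Among the receptor chains, *Il7r*, which encodes the IL-7 receptor alpha chain that IL-7 and TSLP receptors share, was the most abundant member of its kind. It stood at 288 and 203 CPM in WT and at 271 and 257 CPM in TfR1-deficient libraries. The TfR1-deficient values lie between the 2 WT values, which differ more from each other than the genotypes do. The means were 245 ± 60.7 CPM (SD, n = 2) and 264 ± 9.76 CPM, and the log2 fold change was 0.11 (SE 0.21, 95% interval -0.42 to 0.63, adjusted p = 0.977, edgeR's quasi-likelihood test). That interval spans 0.750-fold to 1.55-fold. The sign of the difference depended on the libraries kept. It was 0.42 between TfR1-deficient replicate 1 and WT replicate 2, the pair with little macrophage RNA, and -0.16 between TfR1-deficient replicate 2 and WT replicate 1, and it became -0.13 when WT replicate 2 was left out.

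*Il15ra* encodes the chain that binds and presents IL-15. It was low, with 10.1 and 10.5 CPM in WT and 8.01 and 10.7 CPM in TfR1-deficient libraries, from 112 to 147 counts a library. The 4 values overlap, and the log2 fold change of -0.13 (95% interval -0.89 to 0.62) leaves room for 0.540-fold to 1.54-fold. *Il9r*, the chain specific for IL-9, stood at 12.1 and 9.84 CPM in WT and at 4.96 and 9.20 CPM in TfR1-deficient libraries, from 86 to 148 counts. Both TfR1-deficient libraries lie below both WT libraries, the nearest values differing by less than 1 CPM, and TfR1-deficient replicate 1 is the lowest. Its log2 fold change of -0.64 (SE 0.40, 95% interval -1.65 to 0.38, adjusted p = 0.934, edgeR's quasi-likelihood test) was the largest in size of the 9, and the interval the widest. Of all tested genes, 86.1% had a smaller change in size. Leaving out TfR1-deficient replicate 2 gave -1.15 (past the unadjusted rule), and leaving out TfR1-deficient replicate 1 gave -0.26, so that 1 library sets its size.

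The partner chains of these receptors came from the same list of 6 genes, all tested. None passed the rule with the minimum change, and 4 lay below both WT libraries, an arrangement of 18.9% of all tested genes. *Il2rg*, the shared gamma chain, stood at 1249 and 1864 CPM in WT and at 2125 and 1641 CPM in TfR1-deficient libraries, which overlap. *Il2rb*, the signalling chain of the IL-2 and IL-15 receptors, stood at 1676 and 1033 CPM in WT and at 863 and 1009 CPM in TfR1-deficient libraries, with a log2 fold change of -0.53 (SE 0.26, unadjusted p = 0.0951 by edgeR's quasi-likelihood test). *Il4ra*, the IL-4 receptor alpha chain, had the lowest p of the list. It stood at 600 and 528 CPM in WT and at 403 and 420 CPM in TfR1-deficient libraries, with a log2 fold change of -0.46 (SE 0.14, unadjusted p = 0.0223, adjusted p = 0.911, edgeR's quasi-likelihood test), which is below the minimum change. *Il2ra* (CD25) was used for the sort and stood at 1151 and 1111 CPM in WT and at 1087 and 853 CPM in TfR1-deficient libraries. Of the 7 listed cytokine genes, which include that of TSLP from outside the gamma-chain family, only *Il2* passed the filter on low counts. It stood at 1.22 to 1.80 CPM, and *Il7* and *Il9* had 0 counts in all libraries.

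**Figure D2:**
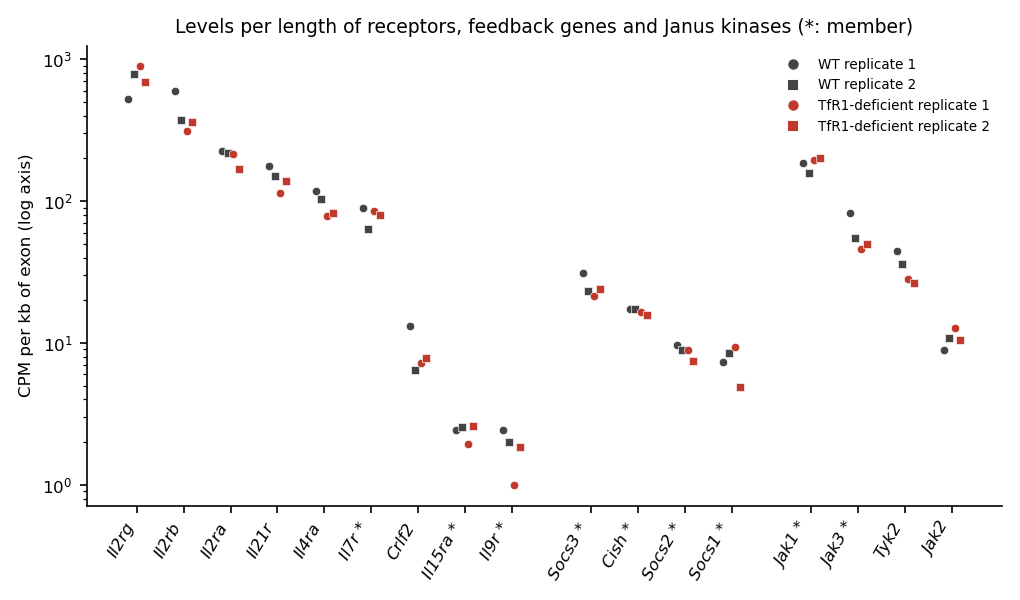
CPM per kb of exon (log y axis) in each of the 4 libraries for receptor chains, feedback genes and Janus kinases, the 9 genes of the report marked with an asterisk. *Il7r* sits near *Il4ra*, and *Il15ra* and *Il9r* are the lowest receptor chains on this scale, while *Jak1* is the highest kinase.

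Levels between genes were compared per kb of exon. The *Il7r* level was 79.4 CPM per kb over the 4 libraries (range 63.1 to 89.9), which overlaps that of *Il4ra* (95.1). The ratio of *Il7r* to *Il2ra* on this scale was 0.397 and 0.289 in WT and 0.396 and 0.479 in TfR1-deficient libraries. *Il15ra* at 2.39 CPM per kb (1.95 to 2.61) and *Il9r* at 1.83 CPM per kb (1.002 to 2.45) do not differ beyond their spread. Both lie below every library of *Crlf2* (8.68), the TSLP receptor chain that pairs with *Il7r*. This rests on exon lengths of 1.46 kb for *Crlf2*, 4.12 kb for *Il15ra* and 4.95 kb for *Il9r*. In CPM without the length, *Crlf2* (9.37 to 19.3) overlapped *Il15ra* (8.01 to 10.7) and *Il9r* (4.96 to 12.1). Among the feedback genes the order on this scale was *Socs3* at 24.95 CPM per kb (21.4 to 31.0), *Cish* at 16.7 (15.7 to 17.4), *Socs2* at 8.79 (7.48 to 9.74) and *Socs1* at 7.53 (4.91 to 9.31), and only *Socs2* and *Socs1* overlap. That order rests on the exon lengths used, which merge all annotated exons of a gene. They were 6.42 kb for *Cish* and 2.89 kb for *Socs3*. In CPM without the length, *Cish* (100.8 to 111.5) exceeded *Socs3* (61.8 to 89.7). Among the kinases *Jak1* at 185 CPM per kb (159 to 200) exceeded *Jak3* at 58.3 (45.8 to 82.3). The lowest *Jak3* library lay just above the highest of *Tyk2* (mean 33.8, 26.3 to 44.7), and *Jak3* lay above *Jak2* (10.7).

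The feedback genes differed in how much they varied, *Cish* the least of the 9 genes and *Socs1* the most within genotypes (SD 0.04 and 0.46 on the log2 scale). *Cish* encodes CIS, which is induced by STAT5 and damps IL-2 receptor signals. It stood at 111.2 and 111.5 CPM in WT and at 106 and 101 CPM in TfR1-deficient libraries. Both TfR1-deficient values are lower, though the highest library exceeds the lowest by only 1.105-fold, the least of the 9 genes. The log2 fold change was -0.11 (SE 0.13, 95% interval -0.44 to 0.23, adjusted p = 0.955, edgeR's quasi-likelihood test), an interval from 0.738-fold to 1.17-fold. The differences within the library pairs were -0.07 and -0.14. Both had to be negative, since both TfR1-deficient values are below both WT values. The spread within genotypes, 0.04 on the log2 scale, compares with a median of 0.25 over all tested genes.

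*Socs1* encodes a direct inhibitor of JAK kinases that binds their catalytic domain. It stood at 9.004 and 10.4 CPM in WT and at 11.4 and 5.99 CPM in TfR1-deficient libraries, from 82 to 197 counts. The TfR1-deficient libraries hold both the highest and the lowest value, so the groups overlap. Its log2 fold change of -0.16 (95% interval -1.17 to 0.85) became -0.70 when TfR1-deficient replicate 1 was left out and 0.22 when replicate 2 of that genotype was.

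*Socs2*, best known as a brake on growth hormone signalling, stood at 92.8 and 85.6 CPM in WT and at 85.5 and 71.3 CPM in TfR1-deficient libraries. The groups barely separate, and the log2 fold change was -0.19 (95% interval -0.59 to 0.22). *Socs3*, which binds the IL-6 receptor chain gp130 and restrains STAT3, stood at 89.7 and 67.7 CPM in WT and at 61.8 and 69.4 CPM in TfR1-deficient libraries. WT replicate 1 is high and the other 3 lie close together. Its log2 fold change was -0.26 (95% interval -0.75 to 0.22) and shrank to -0.03 without WT replicate 1.

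Of the 14 other SOCS genes and brakes, all were tested and 0 passed the rule with the minimum change, with a median log2 fold change of 0.14. The lowest p belonged to *Pias3*, an inhibitor of STAT3, at 49.4 and 39.5 CPM in WT and 35.8 and 29.2 CPM in TfR1-deficient libraries, with a log2 fold change of -0.45 (SE 0.21, adjusted p = 0.911, edgeR's quasi-likelihood test). The 12 STAT5 response genes had a median of 0.01 and 0 passed that rule. Among them *Bcl2*, which encodes a survival factor, stood at 496 and 519 CPM in WT and at 676 and 677 CPM in TfR1-deficient libraries, with no overlap. Its log2 fold change of 0.42 (SE 0.13, unadjusted p = 0.0225, adjusted p = 0.911, edgeR's quasi-likelihood test) is below the minimum change.

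Neither kinase passed the test, and both intervals cross 0. *Jak1* binds the ligand-specific chains and serves many cytokine receptors. It stood at 1335 and 1148 CPM in WT and at 1412 and 1447 CPM in TfR1-deficient libraries. Both TfR1-deficient libraries are higher, with a log2 fold change of 0.20 (SE 0.14, 95% interval -0.16 to 0.57, adjusted p = 0.948, edgeR's quasi-likelihood test), an interval from 0.892-fold to 1.49-fold. The difference was 0.30 and 0.12 in the 2 library pairs.

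*Jak3* binds the shared gamma chain and serves that family alone. It stood at 441 and 294 CPM in WT and at 246 and 269 CPM in TfR1-deficient libraries. Both TfR1-deficient libraries are lower, and WT replicate 1 is the high one. The means were 368 ± 104 CPM (SD, n = 2) and 257 ± 16.2 CPM. The log2 fold change was -0.52 (SE 0.23, 95% interval -1.09 to 0.06, unadjusted p = 0.0697, adjusted p = 0.911, edgeR's quasi-likelihood test), an interval from 0.469-fold to 1.04-fold. It was the lowest p of the 9 genes, and the size exceeded that of 80.6% of tested genes. The difference was -0.26 in the pair with less macrophage and proliferation RNA and -0.72 in the other. It was -0.18 when WT replicate 1, one of the libraries high in both, was left out. The ratio of *Jak1* to *Jak3* per kb was a measure chosen after the values were seen. It was 2.24 and 2.89 in WT and 4.26 and 3.995 in TfR1-deficient libraries. That these ratios do not overlap follows from the orders of *Jak1* and *Jak3* given above and adds nothing to them.

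**Figure D3:**
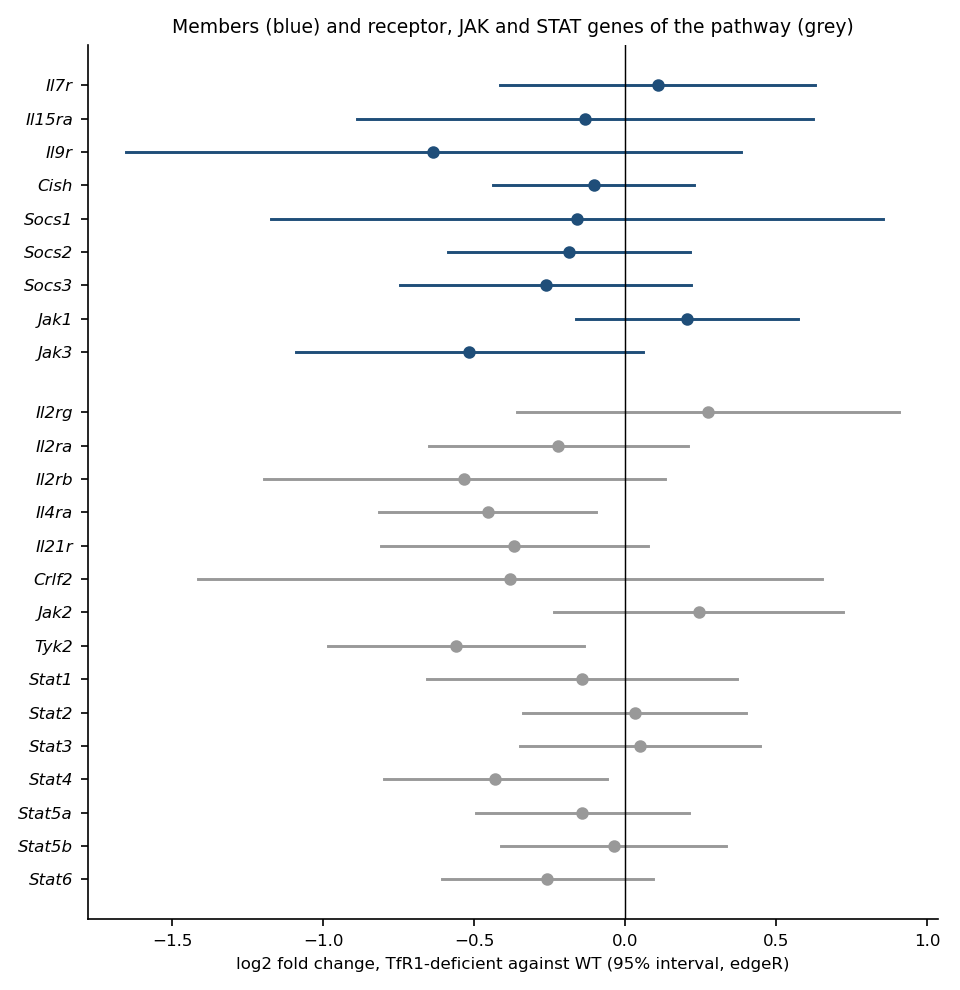
Log2 fold change of TfR1-deficient against WT libraries (x axis, point) with its 95% interval from edgeR (line) for the 9 genes (blue) and for receptor, JAK and STAT genes of the pathway (grey), 2 libraries a genotype. All 9 blue intervals cross 0, and that of *Il9r* is the widest.

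Of the 9 other JAK and STAT genes, 1 was lower at the unadjusted rule and 0 were higher. This was *Tyk2*, a kinase of the interferon and IL-12 receptors, at 206 and 165 CPM in WT and 131 and 121 CPM in TfR1-deficient libraries, with a log2 fold change of -0.56 (SE 0.17, unadjusted p = 0.019, adjusted p = 0.911, edgeR's quasi-likelihood test). *Stat5a* and *Stat5b*, which carry the signal to the nucleus, had log2 fold changes of -0.14 (SE 0.14) and -0.04 (SE 0.15). Among the 9 gp130-type and interferon receptor genes, *Ifngr2*, an interferon gamma receptor chain, stood at 26.9 and 29.5 CPM in WT and 40.8 and 39.5 CPM in TfR1-deficient libraries. *Il10ra*, the IL-10 receptor alpha chain, stood at 69.3 and 51.7 CPM in WT and 39.3 and 39.9 CPM in TfR1-deficient libraries. These were the 1 higher and 1 lower gene of that list at the unadjusted rule, and neither passed adjustment (adjusted p = 0.911 for both, edgeR's quasi-likelihood test). None of the 9 transcription factors of the *Il7r* list passed, and *Gabpa*, an activator of *Il7r*, had the lowest p at a log2 fold change of -0.34 (SE 0.22). Over all 7 lists, 59 of 65 genes were tested, with a median log2 fold change of 0.02. Of these, 1 was higher and 2 were lower at the unadjusted rule, against the 1.6% and 2.48% of all genes given above, and 11 lay above and 18 below both WT libraries, where the shares of all tested genes were 16% and 18.9%.

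**Figure D4:**
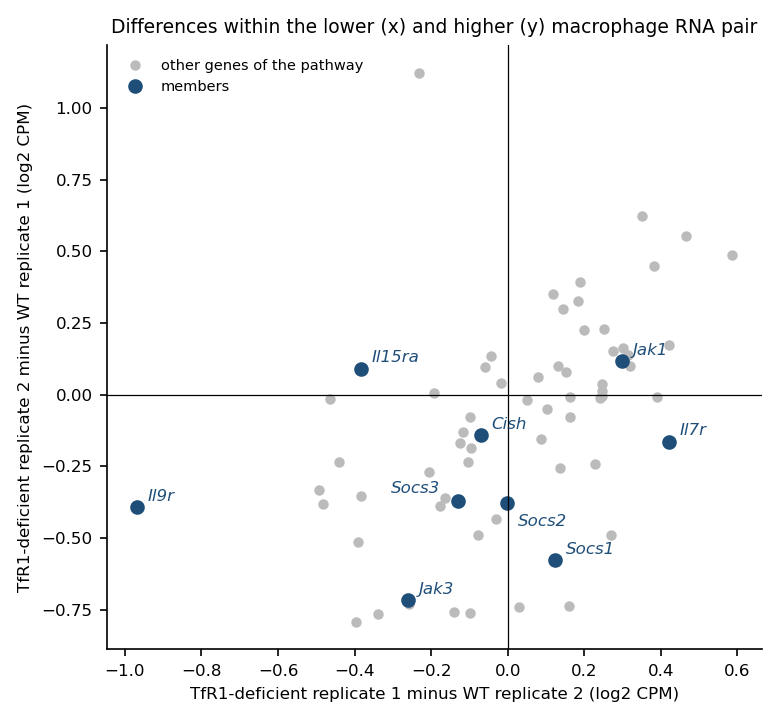
Difference in log2 CPM of TfR1-deficient replicate 1 minus WT replicate 2 (x axis, the pair with lower macrophage and proliferation RNA) against TfR1-deficient replicate 2 minus WT replicate 1 (y axis, the pair with higher macrophage and proliferation RNA), for the 9 genes (blue) and the other tested genes of the pathway (grey). *Il9r*, *Jak3*, *Socs3* and *Cish* are negative on both axes and *Jak1* is positive on both, while *Il7r*, *Il15ra* and *Socs1* change sign.

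Within the 2 pairs of libraries, which share no library, *Il7r*, *Il15ra* and *Socs1* changed sign and the other members kept theirs. The share of all tested genes that keep their sign was not computed, so this is no result about the members. For *Il9r*, *Cish*, *Socs2*, *Jak1* and *Jak3* the kept sign was fixed by the order of the libraries given above. *Il9r* was -0.97 and -0.39, *Cish*, *Jak3* and *Jak1* were as given above, *Socs3* was -0.13 and -0.37, and *Socs2* was -0.002 and -0.38. *Il15ra* was -0.38 and 0.09, and *Socs1* was 0.12 and -0.58. Among the other genes named, *Il4ra* was -0.39 and -0.51, *Il2rb* -0.26 and -0.73, *Tyk2* -0.34 and -0.77, *Il10ra* -0.40 and -0.79, and *Pias3* -0.14 and -0.76. Each had both TfR1-deficient libraries below both WT libraries, so being lower in both pairs was fixed by that order. All but *Il2rb* were also named for their low p in these libraries. The difference was larger in the pair with more macrophage and proliferation RNA. *Bcl2* was 0.38 and 0.45 and *Ifngr2* was 0.46 and 0.55, higher in both, which their order in the libraries likewise fixed. *Il2rg* was 0.19 and 0.39, *Il2ra* -0.03 and -0.43, *Stat5a* -0.10 and -0.19, and *Foxp3* -0.10 and -0.76, while *Stat5b* (0.09 and -0.16), *Il2* (0.27 and -0.49) and *Gabpa* (0.03 and -0.74) changed sign. These are single differences with no test, and the pairs were formed from measured macrophage RNA.

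The genes whose levels across the 4 libraries were most like each member were found by the root mean square difference of log2 CPM, each gene centred on its mean. With 4 libraries many genes come close by this measure. For *Cish*, 1519 tested genes lay within 0.1, for *Il7r* 203, and for *Jak3* 89. *Il9r* had the fewest, 14, and *Socs1* had 60. The 3 nearest to *Il7r* were *Caprin1* (0.00766), *Amigo3* and *Mdm1*, those to *Il15ra* were *Fan1* (0.0186), *Tspan31* and *Gpr89*, and those to *Il9r* were *Arnt2* (0.0475), *Arhgap5* and *Fam83g*. Nearest to *Cish* were *Matr3* (0.0123), *Cbara1* and *Tmem111*, to *Socs1* *Gbp9* (0.0348), *Trip12* and *Tagap1*, to *Socs2* *Taco1* (0.00249), *Lrwd1* and *Golim4*, and to *Socs3* *Grpel2* (0.0152), *Cep68* and *Rora*. Nearest to *Jak1* were *Dus1l* (0.00566), *Rbm15* and *Phf5a*, and to *Jak3* *Mettl15* (0.0288), *Cad* (0.0317) and *Ipo7* (0.0330).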

How the data were processed

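The values are counts: whole-number reads per Ensembl gene, not normalized, which the authors deposited for 4 Treg libraries made with a low-input kit. The submitters' processing notes name Trim Galore 0.6.7, STAR 2.7.9a, featureCounts and mm10, whereas the paper's methods name mm9. Strand, treatment of multi-mapping reads and annotation release are not given in the sources used here.

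The 12536 genes kept by filterByExpr were TMM-scaled, and genotype, alone in the model, was tested in edgeR 4.0.16 (R 4.3.3) by its quasi-likelihood method, with p-values adjusted by Benjamini-Hochberg. Each SE is the log2 fold change over the root of its F statistic. Calls, adjusted or unadjusted, needed p under 0.05 and a log2 fold change of 0.5 or more in size, and the reported adjusted counts are 0 without that minimum too. log2 CPM used a prior count of 2. Exon lengths came from GENCODE vM1, which is older than the counting annotation, since 14930 identifiers are not in it. Of 47729 identifiers, 32799 had a symbol. DESeq2 1.42.0, other scalings, filters, minimum changes, a replicate block and left-out libraries were alternatives. The script was tested on simulated data.

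The members and lists were chosen with earlier results of these data known. Named genes were all members, *Tfrc*, *Foxp3*, *Il2rg*, *Il2ra*, *Il2rb*, *Stat5a* and *Stat5b*, every gene of a pathway list at the unadjusted rule or, failing that, the gene of lowest p, *Csf1r* and *Mki67*, and the 3 genes most like each member. *Crlf2*, *Jak2*, *Il7* and *Il9* were named after their values were seen. Promoters were to be printed for members under p 0.05. There were none, so those holding the motif were printed instead. Protein sequences were not used here.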

Additional observations from a re-analysis of the deposited data

How the results depend on the processing

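None of the 9 members passed an adjusted p of 0.05 in the reported fit or under any other test, scaling, filter, replicate block or left-out library planned here, where the lowest adjusted p was 0.355, of *Jak3* with no count filter. Over all genes, DESeq2's Wald test called 7 higher and 37 lower at an adjusted p, and no count filter called 167 and 95 (650 higher unadjusted). At the unadjusted rule, no count filter gave 1 lower member (*Jak3*) and 4 lower pathway genes, where 445 of all 22368 genes were lower. Scaling by library totals gave 2 higher pathway genes, where 239 of all 12536 genes were higher. No minimum change gave 2 higher and 5 lower pathway genes, where 236 of all 12536 genes were higher and 419 lower. These made 11.9% of the tested pathway genes and 5.22% of all tested genes. A minimum of 1 gave 91 higher and 104 lower genes, 0 and 0 in the pathway. The cause of these shifts was not tested.

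Leaving out 1 library, where the lone library is assumed to vary like the other genotype, gave 140 (without WT replicate 1) to 372 lower genes, 0 to 1 lower members (*Jak3* without WT replicate 2, *Il9r* without TfR1-deficient replicate 2), 0 to 2 higher and 0 to 5 lower pathway genes, medians of -0.183 to -0.0713 for members and -0.0893 to 0.0388 for the pathway, and log2 fold changes of -0.13 to 0.39 for *Il7r*, -0.36 to 0.0617 for *Il15ra*, -0.70 to 0.22 for *Socs1* and -0.12 to 0.0940 for *Tfrc*. The median within pairs was -0.0694 (WT replicate 2 and TfR1-deficient replicate 1) and -0.37 (WT replicate 1 and TfR1-deficient replicate 2) for members, and 0.0872 in the former pair for the pathway. *Tfrc* turned positive with DESeq2 (0.0063), its size factors (0.0059), library totals (0.0296), no filter (0.0045) and at least 10 counts (0.013).

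Same-numbered libraries deviated in opposite directions (correlation -0.61). WT replicate 1 and TfR1-deficient replicate 2 were the libraries high in macrophage RNA. The correlation therefore cannot show whether same-numbered libraries were prepared together. A replicate block left 70 higher and 141 lower genes unadjusted, 0 and 0 in the pathway. Crossing the pairs, chosen after seeing the data, gave 596 higher and 519 lower genes unadjusted, 150 and 210 adjusted, 1 lower member unadjusted (*Il9r*) and 1 pathway gene adjusted, and with no minimum change 1 of the 9 members (*Jak3*) passed the adjusted threshold. That fit is no independent support, since its pairs were formed from these data.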
